A study of Drosophila melanogaster with 32 samples.

Results

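The insulin and TOR genes followed here are InR, chico, Pi3K92E, Akt and foxo, which run from the insulin receptor to a transcription factor, and Tsc1, gig, Tor and S6k, which belong to the TOR branch. They were chosen by name, by the symbol or gene ID of each row of the count files or an older name of it (Akt is listed as Akt1). Each matched 1 row, so the 9 genes are 9 of the 15251 genes in the files, and all 9 are among the 9177 genes that passed a filter on low counts (at least 1 CPM in at least 3 libraries, CPM being counts scaled to library size). InR, Pi3K92E, Akt, foxo and Tsc1 lie on chromosome arm 3R, gig and S6k on 3L, and chico and Tor on 2L.

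RNA of 3 Drosophila melanogaster cell lines, called R1, R4 and R5, was sequenced while the cultures were passaged from passage 2 up to passage 19, a passage being a split of the culture into fresh medium. Cells grew in Schneider's medium with fetal bovine serum and antibiotics, and the sources used here give no origin, genotype, tissue or cell type for the lines. The early stage held passages 2, 3 and 4 of each line. The intermediate stage held passages 5, 7, 8, 10 and 11 of R1, passages 5, 6, 7, 9 and 11 of R4 and passages 6, 7 and 8 of R5, and the late stage held passages 16, 17 and 19 of each line. The library of R4 at passage 12 belonged to no stage and entered no comparison, which left 31 of 32 libraries. The passages of a line were drawn from the same culture. Stages were therefore compared over the 3 lines, and p-values of tests within or between lines measure only the spread between passages.

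In flies, insulin-like peptides bind the receptor InR, which acts through the adaptor chico on the PI3 kinase Pi3K92E and then on the kinase Akt. Active Akt keeps the transcription factor foxo out of the nucleus, and foxo in turn can activate InR. The proteins Tsc1 and gig (the fly Tsc2) together hold back the kinase Tor, which promotes growth and protein synthesis in part through the kinase S6k. The pathway is known to control cell growth and the response to nutrients in many fly tissues.

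Total counts ran from 7760446 to 18213927 per library, and each of the 9 genes had between 349 and 6638 counts in every grouped library. Levels are given as CPM, with library sizes scaled by the trimmed mean of M values. How reads were counted, and whether by strand, is not given in the sources used here. Reads of overlapping or antisense genes therefore cannot be told apart. Of the 9 genes this touches chico, which shares 380 exon bases, or 10.6% of its exon length, with asRNA:CR44995 on the opposite strand in a later annotation. R4 at passage 4 lay apart from R4 at passages 2 and 3 for several of the genes, and results that rest on it are given without it below. In these bulk cultures, fewer cells of a type and less RNA per cell cannot be told apart.

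**Figure D1:**
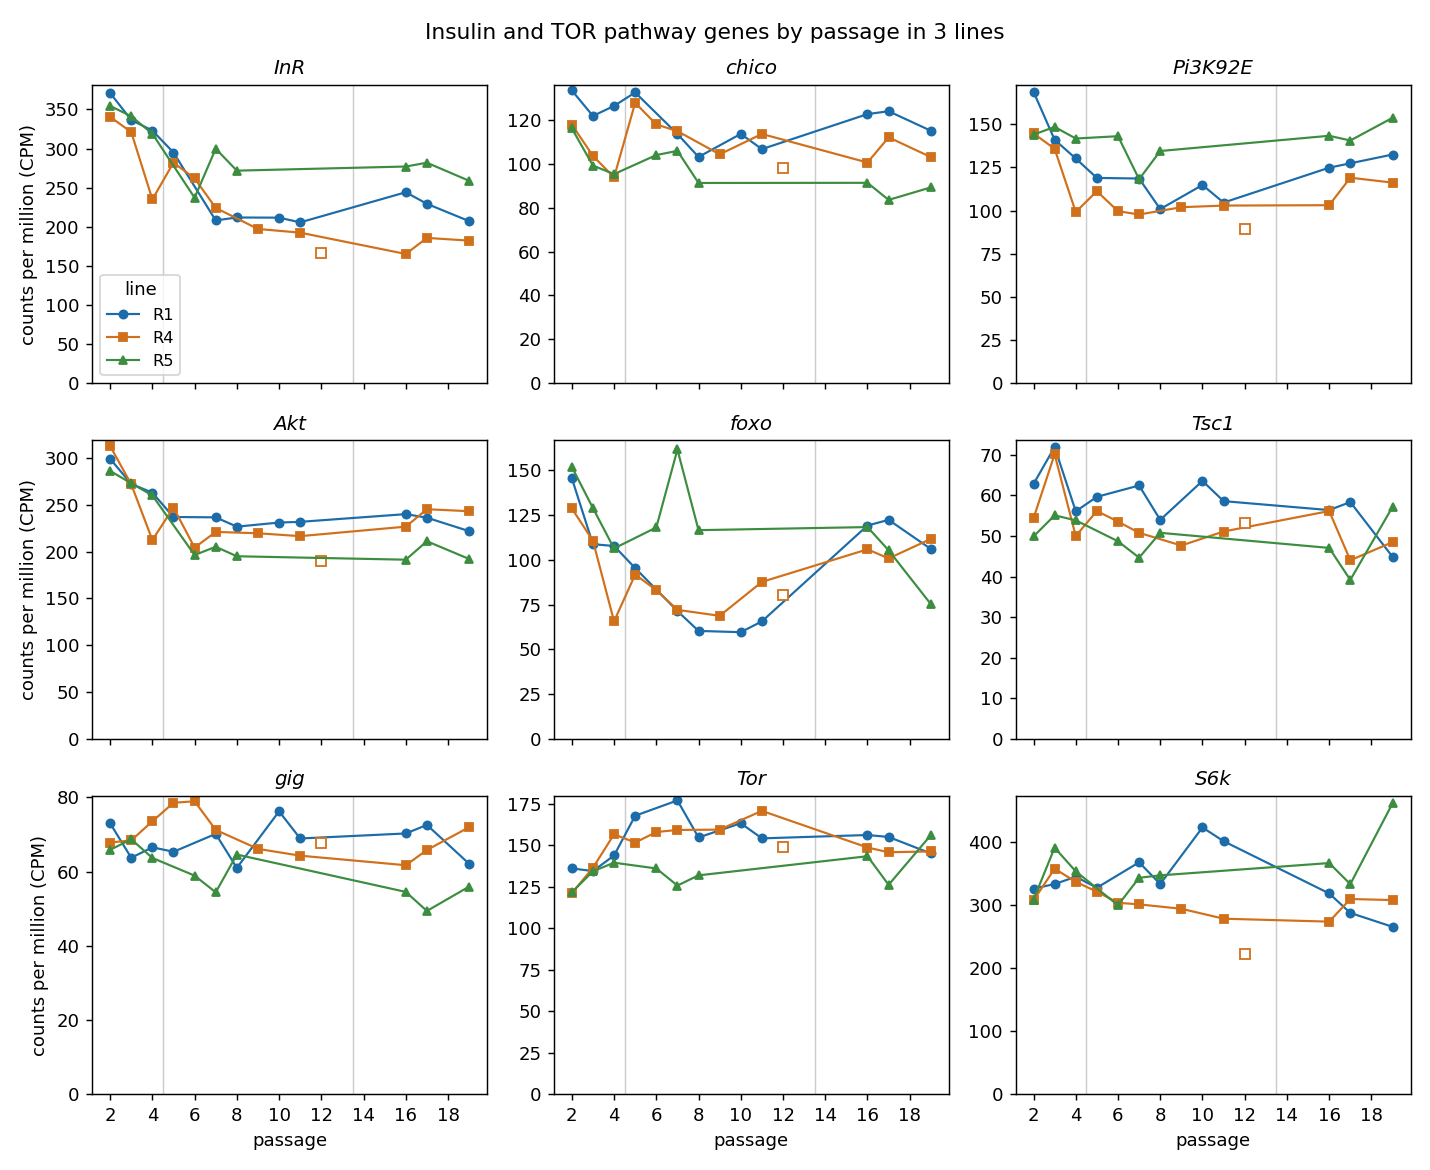
Level of each of the 9 genes (CPM, vertical axis from 0) by passage (horizontal axis) in R1 (circles), R4 (squares) and R5 (triangles), with 1 point per library. Grey lines part the early, intermediate and late stages, and the open square is R4 at passage 12. InR ran from 165 to 282 CPM at late passages and from 235 to 371 CPM at early passages.

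All 9 genes were expressed in every library. Per length, as RPKM (CPM divided by the exon length in kilobases), S6k was highest with a mean level of 68.2 ± 8.92 RPKM (SD, n = 31 libraries), followed by Akt with 48.4 ± 6.42 RPKM. Both kinases were clear of the gene ranked below them, S6k in 30 and Akt in all 31 libraries. Chico averaged 30.6 ± 3.65 RPKM, Pi3K92E 25.9 ± 3.93 RPKM, foxo 24.8 ± 6.51 RPKM and InR 22.9 ± 5.11 RPKM. These 4 levels were not separated throughout, since foxo exceeded InR in 16 libraries and Pi3K92E exceeded foxo in 21 of the 31. Tor followed at 18.4 ± 1.80 RPKM, below InR in only 21 of the 31 libraries and above Tsc1 in 29. The TSC pair was lowest, Tsc1 at 13.9 ± 1.89 RPKM and gig at 11.4 ± 1.21 RPKM. The exon lengths behind these levels come from a later annotation than the counts.

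Foxo and InR varied most over the libraries. The highest CPM was 2.71 times the lowest for foxo and 2.24 times for InR, and between 1.46 times (Tor) and 1.84 times (Tsc1) for the other 7 genes. The coefficient of variation was 26.3% for foxo and 22.3% for InR, and 9.80% to 15.2% for the others, against a median of 20.1% over all tested genes and of 15.0% over the 3025 tested genes with a mean of 50 to 400 CPM.

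The first question was how these genes differed between late and early passages on average over the 3 lines. InR fell, and it was the only one of the 9 genes that passed the test (adjusted p under 0.05, edgeR quasi-likelihood test on counts summed per line and stage), in a comparison where 10.5% of all tested genes passed. The fitted log2 change (late minus early) was below 0 for 8 of the 9 genes, Tor being the exception. It was below 0 for 45.7% of all tested genes, and its median was -0.099 for the 9 genes and 0.033 for all tested genes. At an unadjusted p under 0.05, 3 of the 9 genes were lower and none was higher. Of all 9177 tested genes, 1378 were lower and 1454 higher at that level.

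InR encodes the receptor tyrosine kinase at the head of the pathway. In R1 it had 244, 229 and 207 CPM at passages 16, 17 and 19, against 371, 336 and 323 CPM at passages 2, 3 and 4. In R4 it had 165, 186 and 182 CPM at the late passages, against 340.5, 321 and 235 CPM at the early ones. In R5 the late libraries had 277, 282 and 259 CPM, against 354, 341 and 319 CPM in the early libraries. Every late library lay below every early library of its own line in all 3 lines, which held for no other of the 9 genes and for 5.83% of all tested genes. The share of all tested genes without overlap in a single line was not counted. Averaged over lines, InR stood at 226 ± 47.4 CPM at late and 327 ± 24.4 CPM at early passages (SD, n = 3 lines). The log2 change was -0.53 ± 0.11 (SE), a fold of 0.691 with a 95% interval of -0.80 to -0.27 on the log2 scale (adjusted p = 0.0359, edgeR). The size of the change varied little with the libraries used, but its side of the threshold did not hold throughout: without passage 2 of every line the log2 change was -0.47 (adjusted p = 0.0521), and without R1 at passage 5 the adjusted p was 0.0551. It was also 0.108 with no line block, 0.212 without line R1 and 0.236 without line R4. Without R4 at passage 4 it was -0.61 (adjusted p = 0.0318).

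The intermediate libraries of InR mostly lay below the early ones of their line. R1 had 295, 208, 212, 212 and 206 CPM at passages 5, 7, 8, 10 and 11, so that passage 5 stood nearest the early libraries and the other 4 near the late ones. R4 had 282, 262, 224, 197 and 193 CPM at passages 5, 6, 7, 9 and 11, an ordered decline over the stage. R5 had 237, 299.8 and 272 CPM at passages 6, 7 and 8, which overlapped its late libraries. Over the 3 lines, intermediate minus early was -0.40 ± 0.11 for InR (adjusted p = 0.0654, edgeR), which missed the threshold, and late minus intermediate was -0.13 ± 0.11 (adjusted p = 0.693).

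Some markers of other cell types also passed the test for late minus early, in which 10.5% of all tested genes passed. Of the 6 fat body genes listed, 4 could be tested and 3 of them were called lower at late than at early passages. The summed level of the list ran from 106 to 399 CPM at late and from 99.7 to 990 CPM at early passages. Its median was 255 CPM at early, 80.9 CPM at intermediate and 216 CPM at late passages. Of the 8 neuron markers 1 fell, as did 1 of 6 glia markers, while none of the hemocyte, sarcomere muscle, adult muscle precursor or epithelium markers passed the test. No marker of any of these 7 lists was without reads throughout a stage, and the labels name no cell type to check them against. The part of these changes in the result for InR was not tested.

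**Figure D2:**
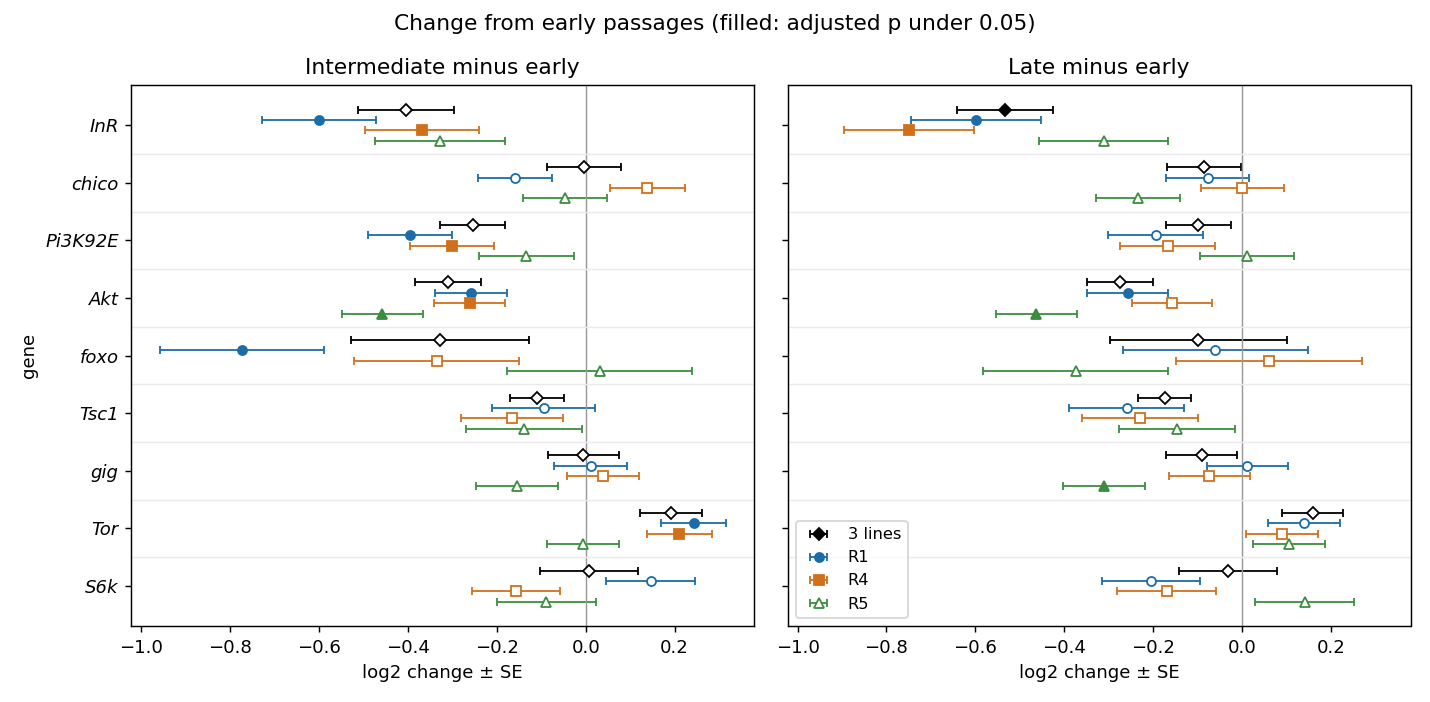
Fitted log2 change (horizontal axis, ± SE) of the 9 genes, for intermediate minus early (left) and late minus early (right), over the 3 lines (diamonds) and within R1 (circles), R4 (squares) and R5 (triangles). Filled symbols passed an adjusted p of 0.05. InR is the only gene with a filled diamond, at -0.53 for late minus early.

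The genes that relay the signal of the receptor were lower on average at late passages, but no change in them passed the test over the 3 lines. Akt, the kinase at the centre of the pathway, came nearest. Akt had 240.2, 236 and 222 CPM in late R1 libraries, against 299, 272 and 263 CPM in early ones. Its late R4 libraries had 227, 245 and 243 CPM, against 313, 272 and 212 CPM in the early ones. Late R5 libraries held 191, 211 and 192 CPM, against 286, 273 and 260.1 CPM in early ones. Late and early libraries did not overlap in R1 and R5 but did in R4, where passage 4 was the lowest of the 6. The log2 change was -0.27 ± 0.074 with an adjusted p of 0.0689 (edgeR, 95% interval -0.46 to -0.094). It passed the test without R4 at passage 4, at -0.35 with an adjusted p of 0.0352, while without R4 at passage 2 it was -0.25 with an adjusted p of 0.171, and without passage 2 of every line -0.20 with an adjusted p of 0.201.

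The intermediate level of Akt lay near its late level. Its intermediate libraries ran from 227 to 237 CPM in R1, from 204 to 247 CPM in R4 and from 195 to 205 CPM in R5. Intermediate minus early was -0.31 ± 0.074 over the 3 lines (adjusted p = 0.0517, edgeR), and late minus intermediate was 0.036 ± 0.074 (adjusted p = 0.889).

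Pi3K92E, the catalytic subunit of the PI3 kinase, had its lowest mean at the intermediate stage, although no step passed the test. Averaged over lines it stood at 139 ± 11.1 CPM at early, 115 ± 15.0 CPM at intermediate and 129 ± 16.6 CPM at late passages (SD, n = 3 lines). The R1 libraries had 169, 141 and 130.2 CPM at early and 119, 119, 101, 115 and 105 CPM at intermediate passages, and 125, 127 and 132 CPM at late ones. In R4 the gene had 145, 136 and 99.2 CPM at early, 111, 99.7, 97.8, 102 and 103 CPM at intermediate and 103, 119 and 116 CPM at late passages. In R1 and R4, the intermediate libraries overlapped the early ones only through passage 4 of R4, and the late libraries overlapped the early ones only through passage 4 of each of these lines. R5 had 142 to 148 CPM at early, 143, 118 and 135 CPM at intermediate and 141 to 154 CPM at late passages. The log2 change was -0.25 ± 0.073 for intermediate minus early (adjusted p = 0.0759) and -0.099 ± 0.073 for late minus early (adjusted p = 0.399, edgeR).

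Chico, the adaptor between receptor and PI3 kinase, was among the steadiest of the 9 genes. Its log2 change over the 3 lines was -0.085 ± 0.083 for late minus early (adjusted p = 0.524, 95% interval -0.29 to 0.12) and -0.0030 ± 0.083 for intermediate minus early (adjusted p = 0.986, edgeR). The late libraries lay below the early ones without overlap in R5 only, at 91.3, 83.5 and 89.2 CPM against 116, 99.1 and 95.2 CPM.

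Foxo, the transcription factor that Akt holds back, had its lowest stage mean at intermediate passages in R1 and R4. In R1 it had 146, 109 and 108 CPM at early, 95.3, 71.4, 60.3, 59.6 and 65.6 CPM at intermediate and 119, 122 and 106 CPM at late passages, so that no intermediate library reached the level of any other R1 library. In R4 it had 129, 111 and 65.6 CPM at early, 91.7, 83.0, 72.0, 68.7 and 87.6 CPM at intermediate and 106, 101 and 112 CPM at late passages, and passage 4 was the lowest R4 library of all. In R5 the order differed, with 152, 129 and 106 CPM at early, 118, 162 and 117 CPM at intermediate and 118, 105 and 75.2 CPM at late passages. R5 at passage 7 was the highest and R5 at passage 19 the lowest R5 library. Over the 3 lines no step passed the test, with log2 changes of -0.33 ± 0.20 for intermediate minus early (adjusted p = 0.307), 0.23 ± 0.20 for late minus intermediate (adjusted p = 0.706) and -0.099 ± 0.20 for late minus early (adjusted p = 0.766, edgeR).

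None of the 4 genes of the TOR branch passed the test over the 3 lines. Tor was the only one of the 9 genes whose level was higher on average after the early stage, at 136 ± 3.62 CPM at early, 151 ± 17.6 CPM at intermediate and 147 ± 5.09 CPM at late passages (SD, n = 3 lines). In R1 its intermediate libraries held 168, 177, 155, 163 and 154 CPM, all above the early ones at 136, 134 and 144 CPM. In R4 the intermediate libraries had 152, 158, 159, 159 and 171 CPM, against 121, 136 and 157 CPM in the early ones, where passage 4 overlapped with them. In R5 the stages overlapped, at 136, 126 and 132 CPM at intermediate and 122, 134 and 139 CPM at early passages. The log2 change was 0.19 ± 0.069 for intermediate minus early (adjusted p = 0.1197) and 0.16 ± 0.069 for late minus early (adjusted p = 0.179, 95% interval -0.0086 to 0.33, edgeR).

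Of the pair that restrains Tor, Tsc1 had a log2 change of -0.17 ± 0.060 for late minus early (adjusted p = 0.115), with 39.2 to 58.3 CPM at late and 49.9 to 71.9 CPM at early passages over all lines. Its partner gig had -0.091 ± 0.080 (adjusted p = 0.475, edgeR). For S6k, the kinase downstream of Tor, the change was -0.032 ± 0.11 (adjusted p = 0.865), a mean over lines that differed in sign. In R1 S6k had 319, 288 and 266 CPM at late passages, against 326, 333 and 345 CPM at early ones, without overlap. In R5 its late libraries had 367, 333 and 462 CPM, against 309, 391 and 354 CPM in the early ones, and overlapped with them.

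For the first step, intermediate minus early, none of the 9 genes passed the edgeR test over the 3 lines, beside 9.69% of all tested genes. At an unadjusted p under 0.05, 3 were lower (Akt, InR and Pi3K92E) and 1 was higher (Tor). Of all 9177 tested genes, 1486 were lower and 1451 higher at that level. DESeq2 called Akt, InR and Pi3K92E, and 1989 genes in all. Akt was called with edgeR when passage 3, 4, 7 or 10 of R1, passage 4 of R4 or passage 19 of R5 was left out, and Akt and InR were called without R4 at passage 5. For the second step, late minus intermediate, none passed with edgeR, at an unadjusted p under 0.05 or with DESeq2, and 0.0763% of all tested genes passed with edgeR. Of all 9177 tested genes, 1007 had an unadjusted p under 0.05 (edgeR), and DESeq2 called 291 genes in all. The comparisons of the stages share libraries, so their values are not independent.

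The early libraries themselves differed by passage. Passage 4 was lower than passage 2 in all 3 lines for InR, chico, Pi3K92E, Akt and foxo, and higher in all 3 for Tor and S6k, with 1 library per point and no test. Over all tested genes, 23.5% were lower and 22.5% higher at passage 4 than at passage 2 in all 3 lines. For foxo and InR the log2 difference, passage 4 minus passage 2, was largest in R4, at -0.97 for foxo and -0.53 for InR. R5 had -0.51 for foxo and -0.15 for InR, and R1 had -0.43 for foxo and -0.20 for InR.

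Within single lines, the spread between passages set the error, and more genes passed. For late minus early in R1, 2 of the 9 genes fell, InR at -0.60 ± 0.15 (adjusted p = 0.00349) and Akt at -0.26 ± 0.091 (adjusted p = 0.0353), beside 27.7% of all tested genes. In R4, InR alone fell, at -0.75 ± 0.15 (adjusted p = 5.85e-04), beside 30.9% of all tested genes. In R5, 2 fell, Akt at -0.46 ± 0.091 (adjusted p = 7.38e-04) and gig at -0.31 ± 0.092 (adjusted p = 0.0198), beside 17.4% of all tested genes. InR in R5 had a log2 change of -0.31 ± 0.15, which missed the threshold (adjusted p = 0.150). All of these tests were edgeR quasi-likelihood tests on the 31 libraries in 9 groups of line and stage. In each line the share of the 9 genes that passed was near or below the share of all genes.

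Without some single libraries these calls changed. The change of Akt in R1 no longer passed without passage 2 or 3 or any 1 of the late libraries, with an adjusted p of up to 0.186. It also missed the threshold with no filter on low counts (0.0800), with R4 at passage 12 added to the intermediate stage (0.0517) and without passage 2 of every line (0.0938). That of gig in R5 no longer passed without passage 3 or 17, with an adjusted p of up to 0.0964. Without R4 at passage 4, 3 of the 9 genes (Akt, Pi3K92E and InR) were called in R4 in place of 1.

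The separate steps within lines were added after values had been seen. For intermediate minus early in R1, 5 of the 9 genes changed, beside 35.2% of all tested genes. Foxo fell most, with a log2 change of -0.77 ± 0.18 (adjusted p = 0.00232). InR (-0.60 ± 0.13), Pi3K92E (-0.39 ± 0.095) and Akt (-0.26 ± 0.080) fell too, while Tor rose by 0.24 ± 0.073 (adjusted p = 0.0120, edgeR). In R4, 4 of the 9 changed, beside 36.7% of all tested genes, with InR at -0.37 ± 0.13, Pi3K92E at -0.30 ± 0.095, Akt at -0.26 ± 0.080 and Tor at 0.21 ± 0.073 (log2). None of these 4 passed without passage 2 of every line, where the adjusted p-values were 0.140 to 0.241, and none passed without R4 at passage 2 or 3 alone. Leaving out passage 11 of R4 also ended the calls of Tor and InR there, as did passage 7 or 9 for InR. In R1 the call of Akt ended without passage 2 and that of Tor without passage 2 or 3. In R5, Akt alone changed, at -0.46 ± 0.091 (adjusted p = 0.00188, edgeR), beside 14.8% of all tested genes.

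For late minus intermediate in R1, foxo rose by 0.71 ± 0.18 (log2; adjusted p = 0.00643) and S6k fell, with a log2 change of -0.35 ± 0.10 (adjusted p = 0.0130, edgeR), beside 22.3% of all tested genes. The fall of S6k in R1 no longer passed without passage 17 or 19, with an adjusted p of up to 0.105. In R4 none of the 9 passed the edgeR test, beside 12.5% of all tested genes, and DESeq2 called 1, InR. At an unadjusted p under 0.05 foxo was higher and InR lower, with 1278 higher and 1145 lower among all 9177 tested genes. In R5 none passed with edgeR, beside 3.72% of all tested genes, or with DESeq2. S6k was higher there at an unadjusted p under 0.05, with 1023 higher and 776 lower among all tested genes.

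Whether the change between early and late passages differed among the lines was tested for itself. None of the 9 genes passed the joint F test of the line by stage terms (edgeR), beside 12.8% of all tested genes. None had an unadjusted p under 0.05, against 2549 of all 9177 tested genes. DESeq2 called none of the 9, against 1563 genes in all. Without R4 at passage 2, 1 gene (Akt) passed. The lowest adjusted p over the 31 libraries was 0.187, for gig, and that of InR was 0.299.

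The established lines did differ in level. At late passages 6 of the 9 genes passed the joint F test over lines, beside 46.3% of all tested genes. The adjusted p-values were 0.00161 for chico, 0.00516 for S6k, 0.00516 for InR, 0.00519 for gig, 0.0203 for Pi3K92E and 0.0355 for Akt (edgeR). Foxo, Tsc1 and Tor did not pass. Without R5 at passage 19 the count was 3, with chico, gig and InR. The call of Pi3K92E also ended without R4 at passage 16, and that of Akt without passage 3, 16 or 17 of R1, passage 17 of R4 or passage 8 or 16 of R5, with adjusted p-values of up to 0.148.

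**Figure D3:**
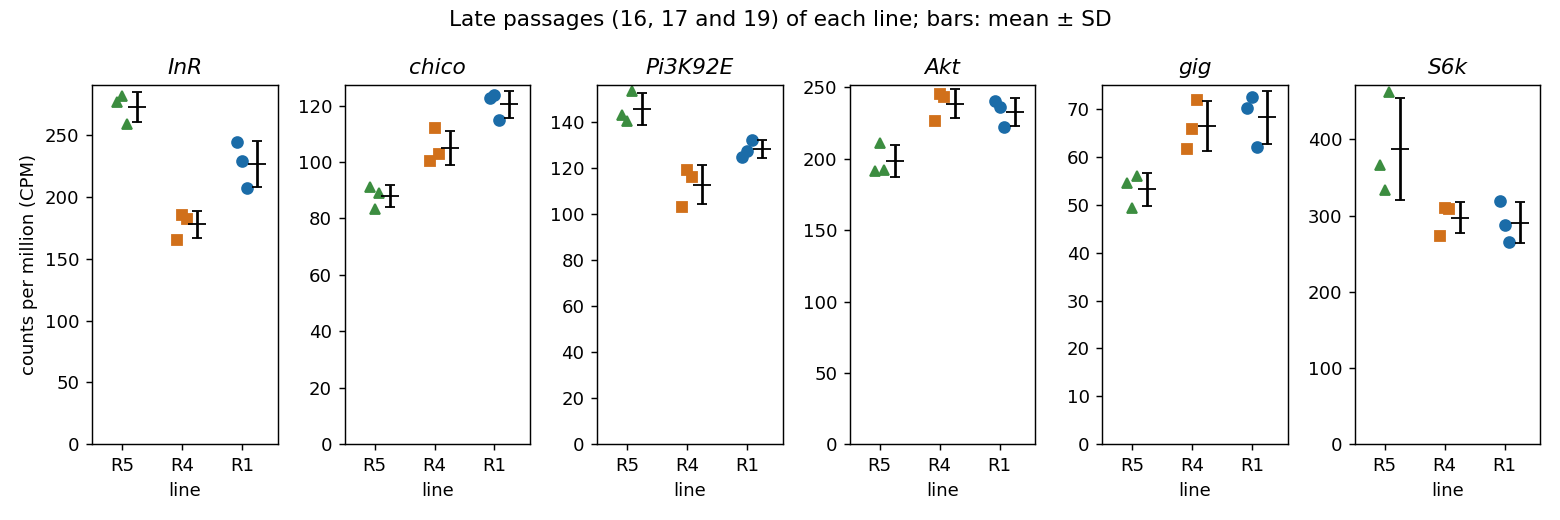
Level (CPM, vertical axis from 0) of the 6 genes that differed among lines at late passages, in R5 (triangles), R4 (squares) and R1 (circles), with 1 point per library (passages 16, 17 and 19 from left to right) and the mean ± SD beside them. InR, Pi3K92E and S6k had their highest means in R5, while chico, Akt and gig had their lowest means there.

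R5 differed from R4 in most of these genes. Against R4 at late passages, 6 of the 9 genes differed, beside 34.1% of all tested genes. InR was higher in R5, with 277, 282 and 259 CPM against 165, 186 and 182 CPM in R4, a log2 difference of 0.62 ± 0.15 (adjusted p = 0.00224, edgeR). Pi3K92E was higher in R5 as well, with 143, 141 and 154 CPM against 103, 119 and 116 CPM in R4, a log2 difference of 0.37 ± 0.11 (adjusted p = 0.00927). Both genes kept the 2 lines apart without overlap.

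S6k was higher in R5 than in both other lines. Its late libraries held 367, 333 and 462 CPM in R5, 274, 309.8 and 308 CPM in R4 and 319, 288 and 266 CPM in R1, without overlap between R5 and the others. The log2 difference was 0.38 ± 0.11 against R4 (adjusted p = 0.00996) and 0.41 ± 0.11 against R1 (adjusted p = 0.00585, edgeR). Passage 19 of R5 was the highest of all 31 libraries for S6k, and without it the differences were 0.25 and 0.28 with adjusted p-values of 0.0986 and 0.0602.

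Akt, chico and gig were lower in R5. Chico had 91.3, 83.5 and 89.2 CPM in R5, against 100.5, 112 and 103 CPM in R4 and 123, 124 and 115 CPM in R1, with log2 differences of -0.26 ± 0.095 from R4 (adjusted p = 0.0380) and -0.45 ± 0.095 from R1 (adjusted p = 6.72e-04, edgeR). Gig had 54.5, 49.4 and 55.9 CPM in R5, against 61.7, 65.8 and 71.9 CPM in R4 and 70.3, 72.5 and 62.1 CPM in R1. Its log2 differences were -0.32 ± 0.093 from R4 (adjusted p = 0.00971) and -0.36 ± 0.092 from R1 (adjusted p = 0.00427). For both genes every late R5 library lay below every late library of the other lines. The share of all tested genes that parted lines without overlap, here and for InR, Pi3K92E and S6k above, was not counted. At late passages 46.3% of all tested genes passed the joint F test over lines. Akt differed from R4 by -0.27 ± 0.091 (adjusted p = 0.0255), and its difference from R1, -0.23 ± 0.091, missed the threshold (adjusted p = 0.0508).

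Several of the differences from R4 depended on 1 library. Those of chico did not pass without R4 at passage 17 or any 1 late R5 library, those of Akt without R4 at passage 17 or R5 at passage 16 or 19, those of gig without R5 at passage 17, those of Pi3K92E without R4 at passage 16 and those of S6k without passage 16 of R4 or passage 19 of R5. The difference of chico from R4 also missed the threshold with no filter on low counts (adjusted p = 0.0575) and with passage 4 counted as intermediate (adjusted p = 0.0520). Against R1, 3 of the 9 genes differed (S6k higher, chico and gig lower in R5), beside 33.7% of all tested genes. DESeq2 also called Akt in that comparison. R4 and R1 differed in none of the 9 with edgeR or DESeq2, beside 14.7% of all tested genes with edgeR. InR (-0.35 ± 0.15, R4 minus R1) and chico (-0.20 ± 0.094) were lower in R4 at an unadjusted p under 0.05. Of all 9177 tested genes, 1296 were lower and 1302 higher at that level.

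At early passages none of the 9 genes passed the test over lines with edgeR, beside 4.69% of all tested genes, or with DESeq2, which called 796 in all. Chico alone had an unadjusted p under 0.05 (adjusted p = 0.0799, edgeR), against 1999 of all 9177 tested genes. Chico passed when passage 5 of R1 or passage 2 of R4 or of R5 was left out. InR had 338 ± 17.9 CPM in R5, 299 ± 56.1 CPM in R4 and 343 ± 24.8 CPM in R1 (SD, n = 3 passages). S6k had 351 ± 41.4 CPM in R5, 334 ± 25.3 CPM in R4 and 335 ± 9.49 CPM in R1.

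Over the 31 libraries the 9 genes did not all vary together. The median Pearson r of log2 CPM over the 36 pairs was 0.23, and 23 pairs were above 0. All of these r are descriptions over libraries that share lines and stages. InR and Pi3K92E varied together (r = 0.68), as did Pi3K92E and foxo (r = 0.66) and InR and foxo (r = 0.55). Tor ran against these genes, with r = -0.74 to foxo, -0.63 to Pi3K92E and -0.62 to InR. After the mean of each line and stage was taken off, r was 0.75 for InR and foxo and 0.45 for InR and Pi3K92E. For Tor it was then -0.49 to foxo, -0.23 to Pi3K92E, -0.46 to InR and -0.66 to Akt. Some pairs with chico or Akt were also high on that scale, with 0.73 for InR and chico (0.15 before) and 0.71 for Akt and foxo. Others were not, with -0.25 for chico and Tor and -0.0021 for Akt and gig. The median over the 36 pairs was then 0.23.

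The 3 tested genes most like InR over the 31 libraries were Notum, which encodes a secreted enzyme that inactivates Wnt proteins (r = 0.94), Follistatin (Fs), which encodes a secreted binding protein of activins (r = 0.92), and the cytochrome P450 gene Cyp4s3 (r = 0.91). Their mean levels were 78.9 CPM at early, 10.4 CPM at intermediate and 10.8 CPM at late passages for Notum, 86.6, 34.0 and 33.6 CPM for Fs, and 11.1, 0.821 and 0.708 CPM for Cyp4s3. For late minus early over the 3 lines Notum (adjusted p = 0.0788) and Fs (adjusted p = 0.0851) did not pass the edgeR test, and Cyp4s3 did (adjusted p = 0.0480).

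Beyond these 9 genes, 54 further genes of insulin and TOR signalling were listed, of which 52 were found in the files and 45 could be tested. For late minus early over the 3 lines, 1 rose and 2 fell, beside the 10.5% of all tested genes called, and their median log2 change was 0.036. The 2 that fell were Ilp6 and Atg8a, and the gene that rose was dock.

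Of the 8 genes for insulin-like peptides, Ilp6 alone was expressed well enough to be tested. The other 7 had between 1 read (Ilp1) and 79 reads (Ilp8) in all 31 libraries together. Ilp6, made mainly by the fat body in the living fly, fell. In R1 it had 5.32, 6.21 and 4.93 CPM at late passages, against 26.2, 21.9 and 16.1 CPM at early ones. In R4 the late level was 4.77, 5.07 and 4.69 CPM, against 23.6, 13.3 and 7.10 CPM at early passages. In R5 it was 7.14, 2.81 and 21.8 CPM at late passages, against 26.0, 21.8 and 18.6 CPM at early ones. Late and early libraries were apart in R1 and R4, and R5 overlapped through passage 19. The log2 change over the lines was -1.53 ± 0.24 (adjusted p = 0.0187, edgeR), and for intermediate minus early it was -2.40 ± 0.25 (adjusted p = 0.0111). Late minus early did not pass with no line block (adjusted p = 0.0555), without line R1 (adjusted p = 0.100) or without line R4 (adjusted p = 0.219). The fat body markers, of which 3 of 4 tested fell as given above, are a list that Ilp6 does not belong to, and their part in its fall was not tested.

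Atg8a, which encodes a ubiquitin-like protein of the autophagosome, fell with a log2 change of -0.42 ± 0.077 (adjusted p = 0.0283), and every late library lay below every early one of its line. It had 296 ± 32.5 CPM at late and 402 ± 13.0 CPM at early passages (SD, n = 3 lines). Intermediate minus early was -0.41 ± 0.077 (adjusted p = 0.0323, edgeR). Late minus early did not pass without line R1, R4 or R5, where the adjusted p was 0.101, 0.272 and 0.0776 in that order. Dock, an adaptor that binds the insulin receptor, rose with a log2 change of 0.29 ± 0.063 (adjusted p = 0.0413), at 92.0 ± 5.16 CPM at late and 76.7 ± 4.38 CPM at early passages (SD, n = 3 lines). It no longer passed when passage 4, 7 or 16 of R1, passage 2, 4, 7 or 9 of R4, or passage 16 or 19 of R5 was left out, with adjusted p-values of up to 0.0655. It also missed the threshold with total-count scaling, with either other filter on low counts, with passage 4 as intermediate or with no line block (adjusted p of 0.0594 to 0.0815), and without any 1 line (up to 0.401).

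**Figure D4:**
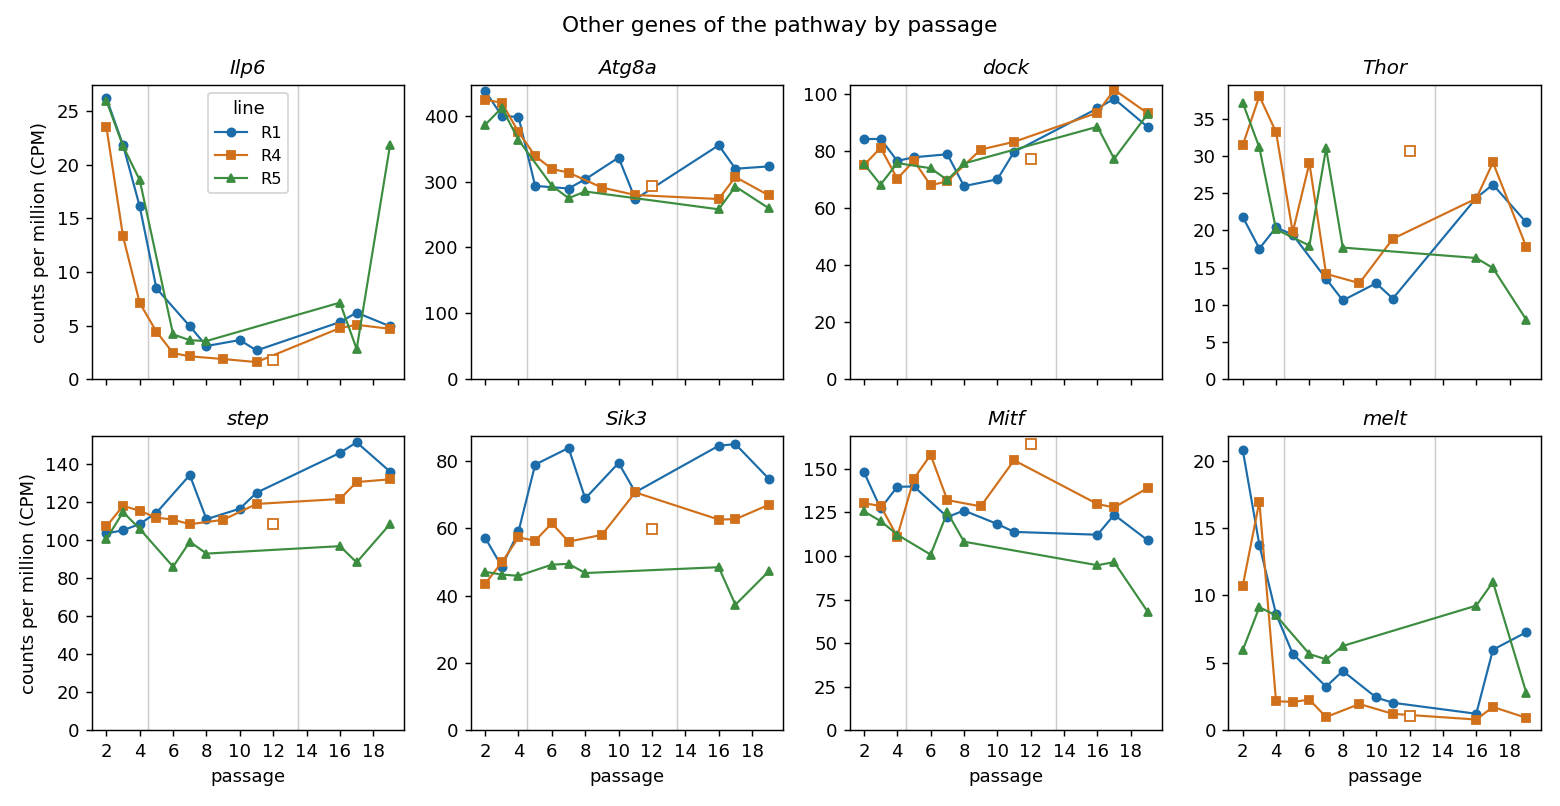
Level (CPM, vertical axis from 0) by passage of 8 further pathway genes in R1 (circles), R4 (squares) and R5 (triangles), 1 point per library, with grey lines between stages and an open square for R4 at passage 12. Ilp6 declined over the first passages in every line, and step and Sik3 parted between R1 and R5.

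Thor, the fly 4E-BP that restrains translation and a known target of foxo, did not pass over the 3 lines (-0.41 ± 0.31, adjusted p = 0.404, edgeR). In R5 it fell, with 16.3, 14.9 and 7.98 CPM at late against 37.2, 31.1 and 20.1 CPM at early passages (-1.18 ± 0.30, adjusted p = 0.00688). In R1 it had 24.3, 26.1 and 21.1 CPM at late against 21.8, 17.5 and 20.4 CPM at early passages, a log2 change of 0.26 ± 0.29 (adjusted p = 0.533). The difference among lines missed the threshold (adjusted p = 0.0558).

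Rheb and ImpL2 did not pass over the 3 lines either. Rheb, the GTPase that activates Tor, had a log2 change of -0.098 ± 0.12 (adjusted p = 0.598, edgeR, late minus early). ImpL2, which encodes a secreted protein that binds insulin-like peptides, had -0.40 ± 0.25 (adjusted p = 0.321). ImpL2 shares 61.9% of its exon length with CG46460 on the same strand, so its counts are uncertain.

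In 5 of the 45 further genes the change between early and late passages differed among the lines (joint F test, edgeR), beside 12.8% of all tested genes. The gene step, which encodes a cytohesin that acts in insulin signalling, had the lowest adjusted p (0.00262). It rose in R1, with 146, 151 and 136 CPM at late against 103, 105 and 108 CPM at early passages, a log2 change of 0.45 ± 0.076. In R4 it ran from 122 to 132 CPM at late, against 107 to 118 CPM at early passages. In R5 it had 96.7, 88.2 and 108 CPM at late against 100.3, 115 and 106 CPM at early passages, a log2 change of -0.13 ± 0.077 that did not pass. The kinase gene Sik3 (adjusted p = 0.0155) likewise rose in R1 (0.57 ± 0.11) and R4 (0.35 ± 0.11), with -0.066 ± 0.11 in R5, where it did not pass. Sik3 shares 6.74% of its exon length with CG42855 on the same strand, and its difference among lines did not hold without R5 at passage 17 (adjusted p = 0.0570).

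Iml1, a subunit of the GATOR complex that restrains Tor when amino acids are scarce, showed the reverse arrangement (adjusted p = 0.0197, edgeR). It rose in R5, with 82.3, 62.2 and 69.9 CPM at late against 39.4, 45.5 and 47.0 CPM at early passages (0.70 ± 0.11), and had log2 changes of 0.20 ± 0.11 in R1 and 0.14 ± 0.11 in R4, which did not pass. The difference did not hold without passage 2 or passage 16 of R5, with an adjusted p of up to 0.0819, without passage 2 of every line (0.146) or with passage 4 as intermediate (0.0532). Mitf, a transcription factor of lysosomal genes, fell in R5 (-0.47 ± 0.11) and had 0.099 ± 0.11 in R4 and -0.27 ± 0.11 in R1, neither of which passed (adjusted p of the difference = 0.0424). Melt, which acts on foxo and TOR signalling, fell in R4 (-3.13 ± 0.66) and in R1 (-1.58 ± 0.58), with -0.030 ± 0.57 in R5 (adjusted p of the difference = 0.0457). It shares 1.92% of its exon length with corn on the opposite strand, and its late level in R4 was 0.795, 1.73 and 0.918 CPM. The difference for Mitf no longer passed without passage 7 or 16 of R1, passage 3, 4, 16, 17 or 19 of R4, or passage 2, 3, 8 or 19 of R5, with an adjusted p of up to 0.0895. That for melt no longer passed without passage 2, 3, 7 or 17 of R1, passage 2, 3, 5, 6, 9, 16 or 19 of R4, or any R5 library but passage 19, with an adjusted p of up to 0.119. Without passage 2 of every line the adjusted p was 0.105 for Mitf and 0.135 for melt, and with no filter on low counts it was 0.0627 for Mitf and 0.0557 for melt. That of Mitf was also 0.0538 with a filter at 5 CPM and 0.156 with passage 4 as intermediate. That of step held without any single library.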

How the data were processed

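Libraries were made from ribosomal-RNA-depleted total RNA with a ScriptSeq kit, per the labels' protocols. The deposited values are raw counts per gene, 1 file per library, and the submitters' processing notes name bedtools, Bowtie 0.12.8 and TopHat 1.4.1 with the dm3 (BDGP5) genome. The sources used here give neither the annotation release nor the role of each tool. Because names, chromosome arms and exon lengths come from the BDGP6.54 annotation, a later build, no coordinates are given. Of 15253 entries per file, 2 named no gene (0.0123 to 0.0187% of the counts) and were left out. The remaining entries were matched by gene ID (9370), locus tag (5002), symbol (243) or synonym (461), and 175 stayed unmatched. No pair of libraries was identical.

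The 9 genes, the wider pathway list and the marker lists were chosen with earlier results of these data known. All 9 genes are described throughout. Of the wider list, genes called for late minus early or for a change that differs among lines are named, with Thor, Rheb, ImpL2 and Ilp6 in any case. One further gene that this rule names is not reported here. For each of the 9 genes called over the lines, the 3 tested genes of highest r are named. Lobe and Maf1 of the wider list were matched to no single entry. Steps within a line and alternatives for single genes other than late minus early of the 9 were added after seeing the data.

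Passage 4, which the series text puts in both the early and the intermediate stage, was taken as early. The comparison of stages used edgeR 4.0.16 with TMM scaling and its quasi-likelihood test on counts summed per line and stage, with line as block and 4 residual degrees of freedom. Deviations of the mean log2 CPM of a line correlated between stages (r of 0.25 to 0.65 across genes, which are not independent), so the lines pair the stages. Lines were compared in a fit of the 31 libraries in 9 groups with 22 residual degrees of freedom. Same-numbered passages of different lines deviated together at early (r of 0.11 to 0.73) but not at late passages (r of -0.076 to 0.084), and passage was a replicate block in an alternative only. P-values were adjusted over all 9177 genes after Benjamini and Hochberg, and a gene was called at an adjusted p under 0.05. RPKM divide the scaled CPM by exon length, and correlations used log2 CPM with a prior count of 2. Alternatives changed the filter or the scaling, moved passage 4 or 12 to another stage, left out passage 2, a library or a line, or used DESeq2 1.42.0 or limma 3.58.1. The fits were tested on simulated data (R 4.3.3).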

Additional observations from a re-analysis of the deposited data

Results flagged for a closer look

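InR in R1 at passage 5, the first intermediate library, stood at 294.9 CPM, against 206 to 212 CPM in the other 4 intermediate libraries of R1. It was the only case among 42 sets examined, a set being 1 gene in the 5 intermediate libraries of R1 or of R4. The cutoff for such a case would be passed by about 1 in 20 sets of independent libraries. These libraries were successive passages of the same culture, so the cutoff cannot say how often chance gives such a case. Leaving out R1 at passage 5 brings the change of InR over the 3 lines to an adjusted p of 0.0551 (edgeR). For a late minus early change that differs among the lines, none of the 9 genes passed the joint F test of edgeR. Of the 45 further pathway genes tested, 5 passed it, beside 12.8% of all tested genes. The adjusted p was 0.00262 for step, 0.0155 for Sik3, 0.0197 for Iml1, 0.0424 for Mitf and 0.0457 for melt.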

How the results depend on the processing

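Of 89 recomputed counts of the 9 genes called, 72 lay within 1.5 times the reported count, libraries left out singly aside. For late versus early over the 3 lines, where 1 was called, the count was 2 (Akt and InR) with scaling to total counts, with passage 4 as intermediate and with DESeq2. It was 0 without passage 2, with no line block, without line R1 and without line R4. InR kept an adjusted p under 0.05 in 9 of 13 settings (range 1.86e-04 to 0.236). For intermediate versus early, where 0 were called, the count was 1 (Akt) with median-of-ratios scaling, total counts, passage 4 as intermediate or limma-trend. It was 2 with R4 at passage 12 added and 3 with DESeq2, which called 1989 genes in all, against 889 with edgeR. For late versus early in R1 the count was 1 in place of 2 with no filter, with R4 at passage 12 added and without passage 2. It was 3 in R1 with passage 4 as intermediate (Akt, Pi3K92E and InR). In R4 it was 3 in place of 1 with passage 4 as intermediate. The cause of these shifts was not tested. With single libraries left out, the counts ranged from 0 to 2 for late and for intermediate versus early, 0 to 0 for late versus intermediate, and for late versus early within lines from 1 to 2 (R1), 1 to 3 (R4) and 1 to 2 (R5). They ranged from 0 to 1 for a change that differs among lines, 3 to 6 for lines at late and 0 to 1 for lines at early passages. With passage as a replicate block, 6 genes differed among lines at late and 0 at early passages, as in the fit without it. Late minus early turned positive for S6k without line R1 (0.026, log2), with -0.096 to 0.0011 when single libraries were left out, and for foxo without passage 2 (0.082) and without line R5 (0.015). None of these values passed the test. Over all tested genes, 967 were called for late versus early over the 3 lines, against 1860 with DESeq2, 632 without passage 2, 484 with no line block, 61 without line R1 and 35 without line R4.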

Other observations

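R4 at passage 12, which belongs to no stage, had 167 CPM of InR, 190.1 CPM of Akt and 80.1 CPM of foxo. It had 149 CPM of Tor and 222 CPM of S6k, which is below the 266 to 462 CPM of S6k in the 31 grouped libraries.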
